A study of Mus musculus with 6 samples.

Results

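The E2F family comprises 8 genes in the mouse, E2f1 to E2f8, and all 8 were measured here in the tumour line 393P, which came from a lung adenocarcinoma of a mouse and which some labels write as 9393P. The members were taken by gene symbol from the platform annotation, with 1 probe set per symbol (the one with the highest mean over the 6 arrays), and they are 8 of 19505 genes in all. One group of 3 samples carried AC9 as a stable transfection and the other group of 3 carried the empty vector (VECTOR). Both groups were cultured in RPMI with fetal bovine serum and selected with puromycin or G418 after jetPRIME transfection. The sources used here do not give the drug of each group, whether the transfectants were single clones or pools, or whether replicate samples were separate cultures. The drug and the selection history therefore cannot be told apart from AC9, and the p-values reflect the spread among 3 samples a group, which may be technical. Total RNA was hybridised to Clariom S arrays, 1 per sample, and the values are RMA log2 intensities, so that a difference of 1 is a 2-fold difference. Levels of different genes are not compared with each other, because their probes differ.

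E2F proteins bind DNA at the promoters of genes needed for DNA replication and cell division. E2F1, E2F2 and E2F3 are known as activators that the retinoblastoma protein holds inactive until cyclin-dependent kinases phosphorylate it. E2F4 and E2F5 act mostly as repressors together with the pocket proteins p107 and p130, E2F6 represses with Polycomb proteins and without pocket proteins, and E2F7 and E2F8 are atypical members that bind without a DP partner and repress activator targets late in S phase and in G2. Several E2F genes are themselves transcribed in a cell-cycle-dependent way and carry E2F sites.

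Of the 8 members, 2 passed the threshold of an adjusted p of 0.05 in the limma fit over all genes, E2f8 and E2f4, and both were higher in the AC9 cells. No member passed it downward (0 also at an unadjusted p under 0.05). Over all genes tested, 17.6% passed, 8.26% upward and 9.29% downward, so 2 of 8 is a count to be read against that background. The median log2 change of the 8 members was 0.23, beside 0.02 over all 19505 genes. The groups did not overlap for 4 members (E2f4, E2f7 and E2f8 higher in AC9, E2f1 lower). The same held for 35.1% of all genes, 17.3% higher and 17.7% lower. All 8 members had group means above 6.06, the bound set by the 90th percentile of the negative control probe sets. With AC9 replicate 1 left out, the number of genes past the threshold fell from 3424 to 2174, and the same 2 members passed. In bulk samples a different share of cells in a phase of the cycle and a different amount of RNA per cell cannot be told apart.

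**Figure D1:**
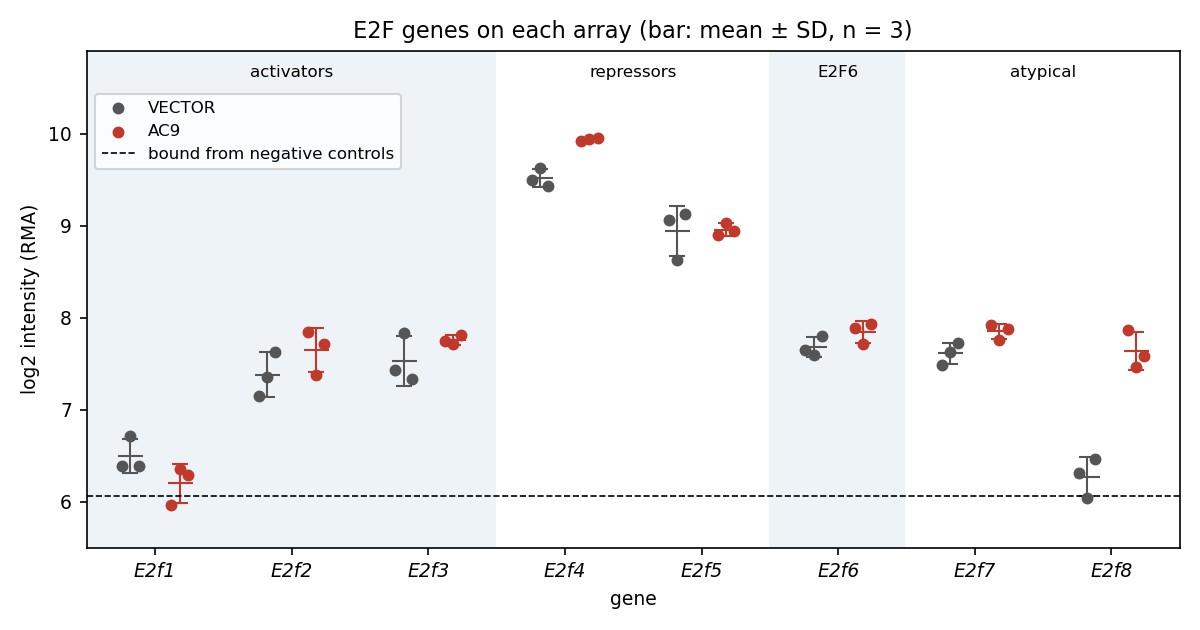
Log2 intensity of each E2F gene on each array (points), with the mean and SD of each group of 3 (bars) and the bound from the negative controls (dashed line); shading and the words at the top give the role. The AC9 points of E2f8 lie between 7.46 and 7.86, all above its VECTOR points of 6.04 to 6.46, and the AC9 points of E2f4 lie within 0.03 of each other above all its VECTOR points.

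E2f8, an atypical E2F that represses E2F target genes, rose furthest. It read 6.31, 6.04 and 6.46 in VECTOR and 7.86, 7.46 and 7.58 in AC9. The lowest AC9 array lay 1.00 above the highest VECTOR array, a gap wider than the spread of 0.42 within VECTOR or 0.40 within AC9. The means were 6.27 ± 0.21 and 7.64 ± 0.20 (SD, n = 3), a log2 change of 1.37 (SE 0.14, 95% interval 1.05 to 1.68) or 2.58-fold (limma adjusted p 0.000264). From the largest rise downward, E2f8 was number 60 of the 19505 genes. Its VECTOR level lay only a little above the negative control bound, so the fold may be understated. With each array left out in turn, the log2 change of E2f8 was 1.25 to 1.46, and it passed the threshold in all 6 of these fits.

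E2f7, the other atypical member, is known to act in pair with E2F8. Its probe set read 7.49, 7.63 and 7.72 in VECTOR and 7.92, 7.76 and 7.88 in AC9. The AC9 arrays were all higher, but the gap between the groups was only 0.04 on the log2 scale. The log2 change was 0.24 (SE 0.10, 95% interval 0.01 to 0.47) and did not pass the threshold (limma adjusted p 0.139). The change of E2f8 exceeded that of E2f7 by 1.13, and the per-array difference between the 2 genes did not overlap between the groups. An exact two-sided permutation test of that difference gave p = 0.1, the smallest value that 3 against 3 arrays allow, and an adjusted p of 0.25 over the 5 pairs of members compared within a role.

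The sequences at the annotated starts of these 2 genes are shown because E2f8 rose and its paralogue did not pass the threshold. They are from RefSeq, assembly GRCm38.p6, on the transcribed strand, from 250 bases before the annotated transcript start through the first 30 transcribed bases, and capitals mark matches to an E2F site as searched (TTNNCGC on both strands, where each N is C or G).
E2f8, chr7:48881567-48881846, minus strand: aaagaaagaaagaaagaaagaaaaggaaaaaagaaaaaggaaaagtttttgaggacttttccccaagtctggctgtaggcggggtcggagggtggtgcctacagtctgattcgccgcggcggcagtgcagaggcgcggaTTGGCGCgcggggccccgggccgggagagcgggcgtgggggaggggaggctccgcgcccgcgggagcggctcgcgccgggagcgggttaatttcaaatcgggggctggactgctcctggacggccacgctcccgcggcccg
E2f7, chr10:110745189-110745468, plus strand: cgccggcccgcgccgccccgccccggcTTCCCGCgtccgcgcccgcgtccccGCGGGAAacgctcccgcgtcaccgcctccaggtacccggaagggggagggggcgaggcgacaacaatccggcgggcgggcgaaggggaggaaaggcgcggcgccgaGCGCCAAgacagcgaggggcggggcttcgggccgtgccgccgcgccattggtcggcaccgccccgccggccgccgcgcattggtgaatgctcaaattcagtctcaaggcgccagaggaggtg
The E2f8 start lies 477 bases inside the end of the gene as RefSeq annotates it, so other starts exist upstream. The E2f8 window held 1 E2F match, from base -111 to -105 before the start, which overlapped a CCAAT box (those letters, on both strands) at -112 to -108. It also held 1 match to the cell cycle homology region, called CHR and searched as TTTGAA on both strands, at -20 to -15. The E2f7 window held 3 E2F matches, at -223 to -217, -198 to -192 and -92 to -86, and 2 CCAAT matches, at -46 to -42 and -14 to -10, with 0 CHR matches. CHR elements are known as sites of the MuvB complex in promoters of genes expressed in G2 and mitosis, and CCAAT boxes bind NF-Y. A match is only a run of letters and does not show binding.

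Matches of this kind are common enough that each must be read against all windows. Of the 32851 windows of 300 bases in the RefSeq promoter table, 9.6% held an E2F match, 17.9% a CHR match and 37.4% a CCAAT match. Of the 8 windows that the table gives for 6 of the members, 4 held an E2F match, 3 a CHR match and 5 a CCAAT match. Some of these starts lie well inside the gene, by 466 bases for E2f1, 1673 for the inner E2f3 start and 8508 for the inner E2f2 start. Such windows do not show what the sequence at the gene's end holds. The member windows had GC contents of 54.7% or more, and among the 14594 windows of at least that GC content the shares were 17.2%, 7.8% and 33.7%. The full cAMP response element (CRE, searched as TGACGTCA on both strands) is the site of CREB, which cAMP signalling activates. It was found in 0 of the 8 member windows, in 1.8% of all windows and in 2.9% of the 14594 windows. At shares this low, 0 of 8 says little about the members, and shorter forms of the site were not searched.

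**Figure D2:**
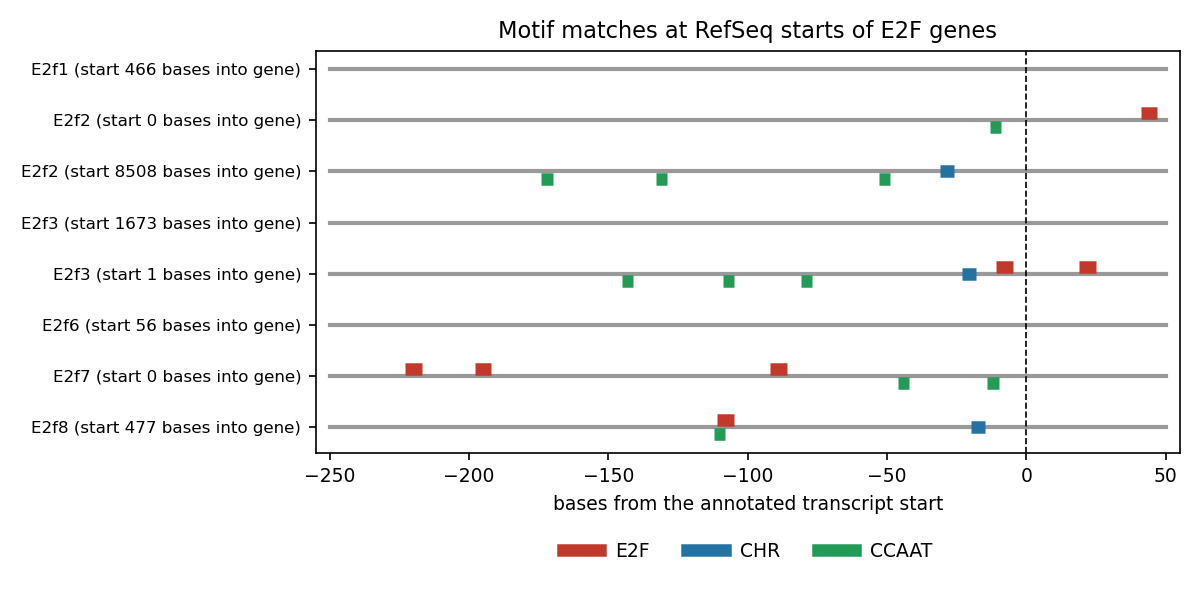
Matches to E2F, CHR and CCAAT letters (coloured blocks) along the windows at 8 RefSeq transcript starts of 6 E2F genes, in bases from the start (dashed line); each row names the gene and how far its start lies inside the annotated gene. The E2f7 window holds 3 E2F matches, and the E2f8 window 1 E2F match overlapping a CCAAT match and 1 CHR match. The windows of E2f1 (start 466 bases inside the gene), E2f6 (56 bases) and the inner E2f3 start (1673 bases) hold none.

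E2f4, a pocket-protein-dependent repressor known from resting cells, was the other member that rose. It read 9.49, 9.63 and 9.43 in VECTOR and 9.92, 9.94 and 9.95 in AC9. Every AC9 array lay at least 0.29 above every VECTOR array, and the AC9 arrays spanned only 0.03. The means were 9.52 ± 0.10 and 9.94 ± 0.02 (SD, n = 3), a log2 change of 0.42 (SE 0.09, 95% interval 0.21 to 0.63) or 1.34-fold (limma adjusted p 0.0131). Its place from the largest rise downward was 1248. With each array left out in turn the log2 change of E2f4 was 0.38 to 0.48 and the adjusted p at most 0.0479, so the call was kept in each fit, but at an adjusted p of 0.01 it was not made.

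E2f5, the other pocket-dependent repressor, did not pass the threshold, with arrays at 9.06, 8.63 and 9.13 in VECTOR and 8.89, 9.03 and 8.94 in AC9. VECTOR replicate 2 was the lowest of the 6 arrays, and the groups overlapped. The log2 change was 0.01 (SE 0.14, 95% interval -0.29 to 0.32, limma adjusted p 0.959), and without VECTOR replicate 2 it was -0.14 (adjusted p 0.420). The change of E2f4 was larger than that of E2f5 by 0.41, but the per-array differences overlapped between the groups (exact permutation p = 0.2, adjusted p 0.25 over the 5 pairs).

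On the probe sets used, the activators did not pass the threshold in either direction (0 of 3, and 0 at an unadjusted p under 0.05). E2f3 has another probe set, not used here, with an unadjusted limma p of 0.0170. Over all genes 17.6% passed, and 0 of 3 cannot be told apart from that share with so few genes. E2f1, the activator best known for driving entry into S phase, read 6.39, 6.71 and 6.39 in VECTOR and 5.96, 6.35 and 6.29 in AC9. All AC9 arrays lay below all VECTOR arrays, by a gap of 0.03. The log2 change was -0.29 (SE 0.14, 95% interval -0.60 to 0.01, limma adjusted p 0.182). AC9 replicate 1 lay under its own negative control bound of 6.11. Background probe sets, which match no transcript, also read lower in AC9: 19 of 23 classes by GC content did so without overlap, by a median of 0.06 over all 23 classes and by up to 0.50. The bound from the negative controls went the other way, at 5.997 to 6.066 on the VECTOR arrays and 6.076 to 6.112 on the AC9 arrays. The part of either shift in the E2f1 values was not tested.

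E2f2, an activator that acts with E2F1, read 7.15, 7.36 and 7.63 in VECTOR and 7.84, 7.38 and 7.72 in AC9. Its groups overlapped, and the log2 change was 0.27 (SE 0.15, 95% interval -0.08 to 0.61, limma adjusted p 0.285). The intervals of E2f1 and E2f2 overlapped, and the change of E2f1 minus that of E2f2 was -0.56 (exact permutation p = 0.2, adjusted p 0.25).

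E2f3 gives rise to isoforms from separate starts and was read by 2 probe sets. The platform's name for the one with the higher mean marks it as unmapped. The name of the other carries the number of the E2f3 chromosome, 13. Values of E2f3 in this text come from the one marked unmapped unless the other is named. The one with the higher mean read 7.43, 7.84 and 7.33 in VECTOR and 7.75, 7.71 and 7.81 in AC9. VECTOR replicate 2 stood above all AC9 arrays and the other VECTOR arrays below them. The log2 change of E2f3 was 0.23 (SE 0.13, 95% interval -0.07 to 0.53, limma adjusted p 0.301). Without VECTOR replicate 2 it was 0.38 and passed the threshold (adjusted p 0.0442). The change of E2f1 minus that of E2f3 was -0.52, without overlap of the per-array differences (exact permutation p = 0.1, adjusted p 0.25), while E2f2 and E2f3 differed by 0.04 (exact permutation p = 1.0, adjusted p 1.0).

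The RefSeq table gives 2 starts for E2f3, and both windows are shown because they differ in the sites they hold, with the same layout and capitals as above. The sources used here do not say which start each probe set reads.
E2f3, start at the gene's end, chr13:29986034-29986313, minus strand: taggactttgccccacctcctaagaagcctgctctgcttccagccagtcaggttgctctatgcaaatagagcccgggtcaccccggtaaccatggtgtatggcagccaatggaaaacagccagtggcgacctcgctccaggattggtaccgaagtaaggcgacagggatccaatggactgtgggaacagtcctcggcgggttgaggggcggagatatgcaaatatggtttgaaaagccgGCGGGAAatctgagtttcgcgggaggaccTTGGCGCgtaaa
E2f3, start inside the gene, chr13:29984362-29984641, minus strand: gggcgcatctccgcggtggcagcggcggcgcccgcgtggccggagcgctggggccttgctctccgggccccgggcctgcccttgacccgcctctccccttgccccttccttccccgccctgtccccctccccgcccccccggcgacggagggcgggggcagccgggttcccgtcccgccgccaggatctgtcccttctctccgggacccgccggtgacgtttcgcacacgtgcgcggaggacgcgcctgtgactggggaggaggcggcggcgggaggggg
The first window held 2 E2F matches, at -11 to -5 before the start and at 19 to 25 counted from the first transcribed base as 1, along with 1 CHR match at -23 to -18 and 3 CCAAT matches. The second window, whose start lies 1673 bases inside the gene, held 0 matches to any of these motifs and had a GC content of 78.7%, against 55.3% in the first.

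E2f6, which represses through Polycomb proteins, read 7.65, 7.60 and 7.80 in VECTOR and 7.89, 7.71 and 7.94 in AC9. The lowest AC9 array lay below the highest VECTOR array. The log2 change was 0.16 (SE 0.10, 95% interval -0.07 to 0.39, limma adjusted p 0.352).

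**Figure D3:**
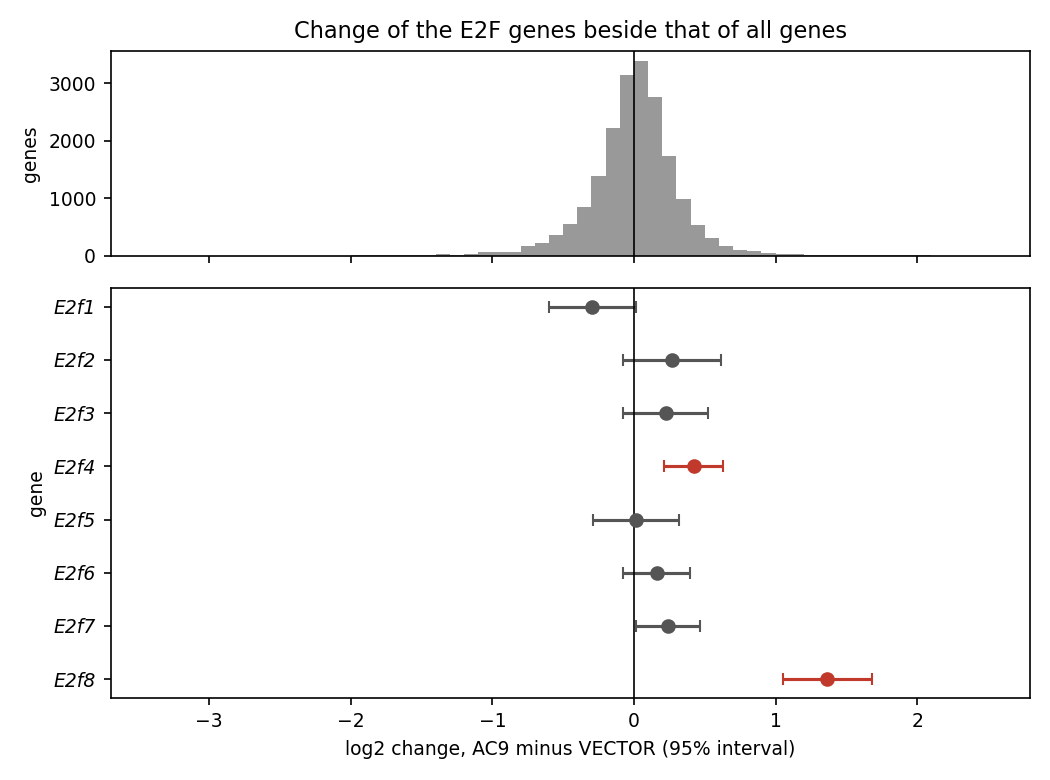
Histogram of the log2 change, AC9 minus VECTOR, of all 19505 genes (top) and the change of each E2F gene with its 95% interval from limma (bottom; red: adjusted p under 0.05). The interval of E2f8, 1.05 to 1.68, lies apart from those of the other members, and that of E2f4 starts at 0.21.

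Compared by role, the mean change on the AC9 arrays relative to the VECTOR mean was 0.05, 0.01 and 0.14 for the 3 activators and 0.18, 0.26 and 0.22 for the 2 pocket-dependent repressors. It was 0.95, 0.67 and 0.79 for the 2 atypical members, and this height came mainly from E2f8. The VECTOR arrays spread from -0.15 to 0.17 for the activators, from -0.10 to 0.05 for the repressors and from -0.11 to 0.15 for the atypical members. The activators' AC9 arrays thus lay within the spread of their VECTOR arrays, and those of the repressors and atypical members above it. With 1 called gene in each of the latter roles, these means describe E2f4 and E2f8 more than a role. The mean of the activators joins changes in opposite directions, -0.29 for E2f1, 0.27 for E2f2 and 0.23 for E2f3, none past the threshold.

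**Figure D4:**
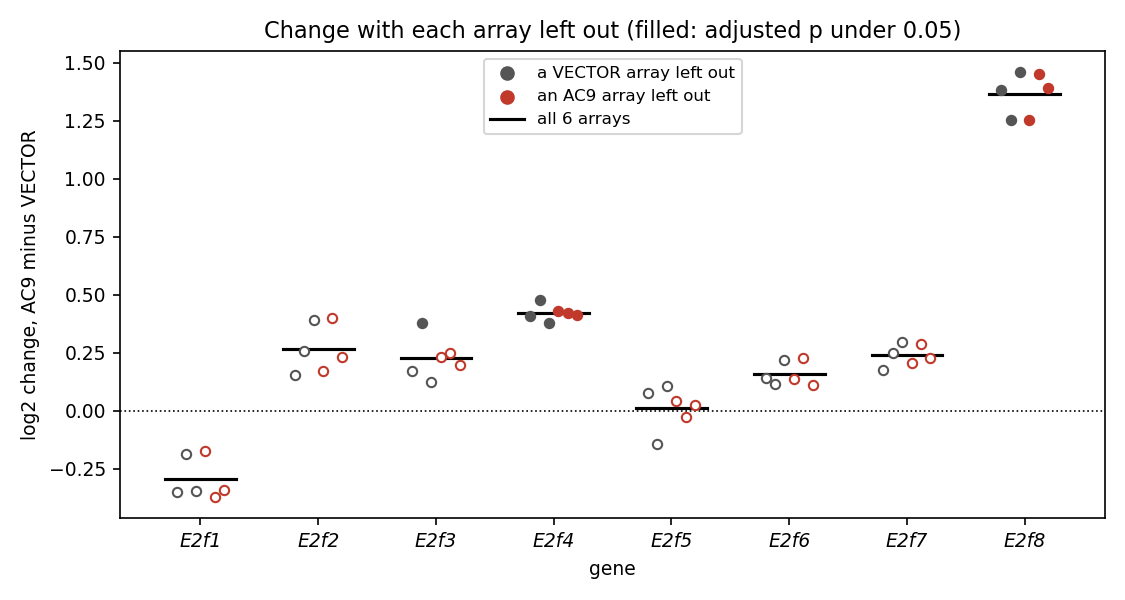
Log2 change of each E2F gene with 1 array left out (points, filled where the adjusted p is under 0.05) and with all 6 arrays (black line). E2f8 stays between 1.25 and 1.46 and E2f4 between 0.38 and 0.48, E2f5 falls on both sides of 0, and the filled point of E2f3 is the fit without VECTOR replicate 2.

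Levels of the called members were compared over the 6 arrays with 10288 genes whose mean lay above the negative control bound. The 8 members and predicted or unnamed genes were left out of these. The genes that followed E2f8 most closely were Espl1, Riok3 and Nqo2, each with a Pearson correlation of 1.00 to 2 decimals. Espl1 encodes separase, the protease that opens cohesin at anaphase, and its log2 change was 0.68 (limma adjusted p 0.00241). Riok3 encodes an atypical kinase (0.90, adjusted p 0.000714) and Nqo2 a quinone reductase (0.94, adjusted p 0.000493). For E2f4 the closest were Fh1, which encodes fumarase (0.23, adjusted p 0.110, or 0.0295 with the trended robust prior and 0.0429 without the dimmest 40% of genes), the histone gene H4c12 (0.43, adjusted p 0.0140) and Ubqln1, which encodes ubiquilin 1 (0.33, adjusted p 0.0313), also at 1.00. The call of Ubqln1 was lost with the replicate number as a block (adjusted p 0.0618) and without any one array other than VECTOR replicate 2 (0.0698 to 0.0946). Such correlations over 6 arrays mostly carry the difference between the groups and are a description only.

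Among the partners of the E2F proteins, the DP genes, which pair with E2F1 to E2F6 on DNA, did not pass the threshold. That is 0 of 2, beside 17.6% of all genes. Tfdp1 had a log2 change of 0.10 (95% interval -0.11 to 0.31) and Tfdp2 one of 0.05 (95% interval -0.21 to 0.30). At an unadjusted p under 0.05, limma also gave 0 of 2.

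The pocket proteins went in different directions. Rb1, which encodes the retinoblastoma protein, read 7.66, 7.55 and 7.61 in VECTOR and 8.02, 8.11 and 7.87 in AC9. It rose by 0.39 (SE 0.10, limma adjusted p 0.0241), with all AC9 arrays above all VECTOR arrays. Leaving out VECTOR replicate 2, VECTOR replicate 3, AC9 replicate 1 or AC9 replicate 2 ended the call of Rb1 (adjusted p 0.0712, 0.0537, 0.0815 and 0.0884). Rbl2, which encodes p130, the pocket protein of resting cells, read 8.33, 8.56 and 8.49 in VECTOR and 8.05, 8.02 and 8.04 in AC9. It fell by 0.42 (SE 0.10, adjusted p 0.0151) without overlap, a call that was lost with VECTOR replicate 2 left out (adjusted p 0.0506) or AC9 replicate 1 (0.0509). Rbl1, which encodes p107, had a log2 change of 0.31 (95% interval 0.03 to 0.58) and did not pass (adjusted p 0.124), except with an intensity-trended robust prior (0.0407).

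Of 7 measured G1 cyclins and kinases, which act upstream by phosphorylating pocket proteins, 2 rose and 1 fell (42.9% called, beside 17.6% of all genes), and Ccnd1 was not analysed here. Ccnd3, encoding cyclin D3, read 10.95, 11.18 and 10.89 in VECTOR and 10.34, 10.47 and 10.33 in AC9. Its change of -0.62 (SE 0.11, limma adjusted p 0.00400) was larger than the spread within either group, and the groups did not overlap. Cdk6, a kinase partner of the D cyclins, rose by 0.42 (adjusted p 0.0369). That call was lost without any one array except VECTOR replicate 3 (adjusted p 0.0720 to 0.112) and with a repeated quantile normalization (0.0633). Ccne2, encoding cyclin E2 and itself a known E2F target, rose by 0.52 (adjusted p 0.0294), and its call was lost without VECTOR replicate 2 (0.0951), VECTOR replicate 3 (0.0852), AC9 replicate 1 (0.107) or AC9 replicate 3 (0.0605). Ccnd2 (-0.23), Cdk4 (-0.14), Cdk2 (-0.04) and Ccne1 (0.09) did not pass, although Ccnd2 did with the trended robust prior (adjusted p 0.00903).

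Of 7 CDK inhibitors, 1 rose and 1 fell (28.6% called, beside 17.6% of all genes). Cdkn1b, encoding p27, which holds cyclin E with CDK2 inactive, read 10.59, 10.69 and 10.77 in VECTOR and 10.13, 9.87 and 10.00 in AC9. It changed by -0.68 (SE 0.10, limma adjusted p 0.00213), and each AC9 array lay below each VECTOR array. Cdkn1a, encoding p21, rose by 0.37 (adjusted p 0.0183), and its call was lost without VECTOR replicate 1 (0.0575), AC9 replicate 1 (0.0595) or AC9 replicate 2 (0.0687). Cdkn2d (-0.33), Cdkn1c (-0.24), Cdkn2b (0.18), Cdkn2a (-0.14) and Cdkn2c (-0.06) did not pass. Neither did the ubiquitin ligase subunit genes that act on E2F proteins or on p27, Skp2 (0.26, adjusted p 0.0797) and Fzr1 (-0.11), of which Skp2 had an unadjusted p under 0.05, and Ccnf was not analysed here. Cdkn2d and Skp2 passed with the trended robust prior (adjusted p 0.0382 and 0.0260) and when the dimmest 40% of genes were left out (0.0340 and 0.0298).

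**Figure D5:**
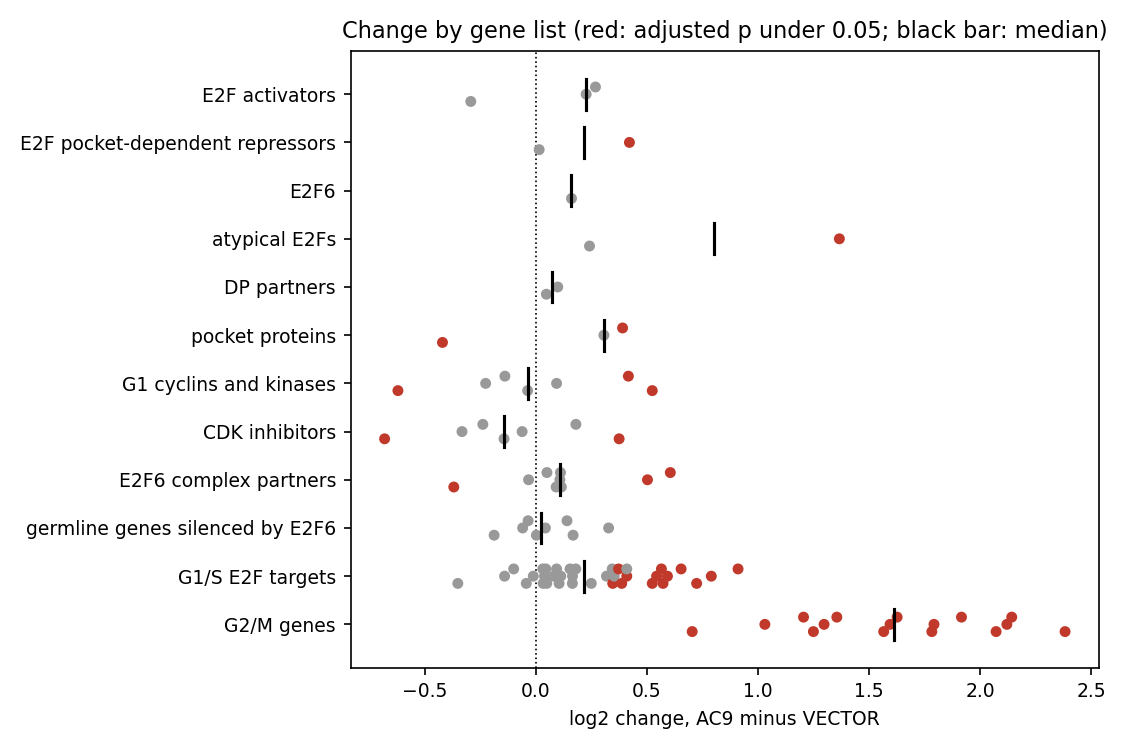
Log2 change, AC9 minus VECTOR, of each gene (points; red: adjusted p under 0.05) in the E2F roles, their partners and upstream regulators, and genes downstream, with the median of each list (black bars). The 16 G2/M genes lie between 0.70 and 2.38, the 36 G1/S targets between -0.35 and 0.91, and E2f8 at 1.37 is the furthest right among the E2F roles.

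Of 9 genes whose products join E2F6 in a Polycomb complex, 2 rose and 1 fell (33.3% called, beside 17.6% of all genes), with a median log2 change of 0.11. Pcgf6 rose by 0.60 (limma adjusted p 0.00264) and Mga, which encodes the DNA-binding partner of MAX, by 0.50 (adjusted p 0.00421). Ring1, a ubiquitin ligase subunit gene, fell by 0.37 (adjusted p 0.0229), a call lost without VECTOR replicate 1 (0.0695), VECTOR replicate 2 (0.0631), AC9 replicate 1 (0.0892) or AC9 replicate 3 (0.0718). Of 8 germline genes known to be silenced by E2F6, 0 passed (1 at an unadjusted p under 0.05 with limma), and in 7 both group means were under the negative control bound. The exception was Tuba3b, which had a log2 change of 0.33 (adjusted p 0.129) and passed without AC9 replicate 2 (adjusted p 0.0403). Hormad1, with the second smallest p of the list, was under the bound in both groups.

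Genes known as E2F targets in G1 and S phase included 36 measured members, of which 13 rose and 0 fell (0 fell at an unadjusted p under 0.05 as well, limma). The share that rose was 36.1% of the list, beside 8.26% of all genes, with a median log2 change of 0.21. Hells, a chromatin remodeller, rose by 0.91 (adjusted p 0.000479), the ribonucleotide reductase subunit gene Rrm2 by 0.79 (adjusted p 0.000730) and the replication initiation factor gene Mcm10 by 0.72 (adjusted p 0.000649). Pole, encoding DNA polymerase epsilon, rose at least 1.21-fold (limma adjusted p 0.0109). This is a lower limit because its VECTOR mean was under the negative control bound, and it sets the AC9 mean against the mean of the VECTOR arrays' own bounds, which ran from 5.997 to 6.066. The log2 change of E2f8, 1.37, was larger than that of each of these 36 genes. It lay within the range of the 16 measured G2/M genes, which rose by 0.70 to 2.38 with a median of 1.61. All 16 passed upward, beside 8.26% of all genes, led by Kif11 at 2.38, Bub1 at 2.14, Mki67 at 2.12 and Ccna2 at 2.07. Both lists were chosen with earlier results of these data known, so their counts are a description only.

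Of 5 measured genes known as apoptotic targets of E2F1, 0 rose (0 at an unadjusted p under 0.05, limma) and 1 fell, beside 17.6% of all genes called in either direction. The gene that fell was Bcl2l11, which encodes the death-promoting protein BIM. It read 9.02, 9.09 and 8.91 in VECTOR and 8.12, 8.23 and 8.36 in AC9, a change of -0.77 (SE 0.10, adjusted p 0.00112) without overlap. In 2 of the 5, Trp73 and Pmaip1, both group means were under the negative control bound.

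The targeted gene and the cell identity were checked once for the whole series. Adcy9, for which AC9 is a synonym in the reference gene table, was higher in the AC9 cells by 0.61 on the log2 scale (limma adjusted p 0.00264), although the sources used here do not say if its probes match the introduced copy. The median log2 intensity was 6.42 to 6.46 per array, and correlations across genes were 0.994 to 0.996 within a group and 0.985 to 0.988 between groups; genes are not independent replicates. Of 7 epithelial markers, 6 lay above the negative control bound in both groups, with summed log2 intensities of 70.5 to 70.7 in VECTOR and 70.5 to 71.1 in AC9. Within these sums Epcam and Cldn4 rose, by 0.44 and 0.50 (limma adjusted p 0.0293 and 0.0189), and Krt19 fell by 0.47 (adjusted p 0.00873); these 3 were named after their values were seen. The call of Epcam was lost without any one array other than AC9 replicate 3 (adjusted p 0.0501 to 0.0983). That of Cldn4 was lost without VECTOR replicate 1, AC9 replicate 1 or AC9 replicate 3 (0.0618 to 0.0712). All 6 measured leukocyte markers (sums of 28.4 to 29.2 in VECTOR and 29.4 to 29.7 in AC9) and all 8 markers of endothelium and fibroblasts (36.0 to 36.3 and 36.6 to 37.2) lay under it in both groups.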

How the data were processed

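The values are log2 intensities of 6 arrays as deposited by the authors, who used RMA, as the submitters' processing notes state. Its quantile step gives all arrays the same distribution of probe values, so a global shift between samples is largely removed. The medians over genes still differed slightly, at 6.446 to 6.461 on the VECTOR arrays and 6.421 to 6.438 on the AC9 arrays. The sources used here name no software version or genome build. The platform annotation named 19572 of 28846 probe sets with exactly 1 symbol, and keeping the brightest probe set of each symbol left 19505 genes. The groups were compared on these values, unfiltered, with limma 3.58.1 (R 4.3.3; linear model and moderated two-sided test), with Benjamini-Hochberg adjustment across the 19505 genes and a threshold of 0.05. The fit was tested on simulated data. SD is over 3 arrays, SE and 95% intervals come from limma, and the number of arrays limits the precision. A gene with 1 group mean under the bound from the negative controls is given a lower limit: the brighter group's mean over the mean, across the dimmer group's arrays, of each array's own bound or the gene's value where higher.

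The members and the gene lists were chosen with earlier results of these data known. Named were Adcy9, the 8 members, their partners and upstream regulators, up to 4 called members of each further list by size (otherwise the 2 with the smallest p), and the 3 genes most correlated with each called member. Windows around transcript starts, named by symbol, came from RefSeq tables of GRCm38.p6. Alternatives were an intensity-trended robust prior, repeated quantile normalization, median centring, leaving out genes under the 40th percentile, averaging the probe sets of a symbol, weights for arrays, a replicate block, leaving out single arrays, an adjusted p of 0.01 and, chosen after seeing the data, the other E2f3 probe set.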

Additional observations from a re-analysis of the deposited data

Results flagged for a closer look

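The other probe set of E2f3, which the choice of the brightest probe set left out, was higher on every AC9 array. It read 6.94 to 7.11 in VECTOR and 7.25 to 7.34 in AC9, a log2 change of 0.27 (SE 0.09, 95% interval 0.06 to 0.47). In the limma fit over all 19572 named probe sets it did not pass the threshold (adjusted p 0.0786, unadjusted p 0.0170). The brightest E2f3 probe set overlapped between the groups because VECTOR replicate 2, the lowest array of the other probe set, was its highest.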

How the results depend on the processing

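The calls of E2f8 and E2f4 were made under each alternative except that an adjusted p of 0.01 left 1 member, E2f8. The number of members higher was 2 to 3 with each array left out in turn, E2f3 being the third, and the number lower was 0. With all genes, 3424 passed, 1670 did at an adjusted p of 0.01, 2174 to 3025 did with each array left out, 4674 with the trended robust prior and 4307 without genes under the 40th percentile. With arrays centred on their medians, 1861 were higher and 1650 lower, against 1612 and 1812. The log2 change of E2f5, which was not called, was -0.0091 with array weights and -0.14 to 0.11 with each array left out, below 0 without VECTOR replicate 2 and without AC9 replicate 2 (-0.03). Other uncalled changes also turned: that of Tfdp2 ran from -0.052 to 0.12, that of Cdk2 from -0.091 to 0.046 and that of Cdkn2c from -0.16 to 0.098 with each array left out. The causes were not tested. Deviations of same-numbered samples correlated at 0.00764 to 0.0814, and those of differently numbered samples at -0.0924 to 0.0878. The labels do not say if the numbers pair samples, and these correlations cannot decide it. With the replicate number as a block, 3062 genes passed, with the same 2 members. The mean log2 intensity of E2f1 in AC9 was 6.20 and that of E2f8 in VECTOR 6.27, beside a bound from the negative controls of 6.06.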
